A study of Mus musculus with 4 samples.

Results

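The fibroblast growth factor (FGF) genes described here are Fgf4, a secreted ligand, its receptors Fgfr1 and Fgfr2, the feedback inhibitors Spry2, Spry4 and Dusp6, and the ETS-domain transcription factors Etv4 and Etv5. They are 8 of the 32285 genes in the count matrix, were chosen by symbol, and all 8 were detected in every library. Their levels were read per library, per cell cluster and along an order of cells from low to high naive marker expression, together with their co-expression in single cells.

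Mouse embryonic stem cells (mESC) make their own FGF4, which is transcribed under the pluripotency factors OCT4 and SOX2. It binds FGF receptors on the cell surface with heparan sulfate as a co-factor, and the receptors act through RAS, RAF and MEK on the kinase ERK. In mESC this signal drives cells out of naive pluripotency, the state closest to the early epiblast, into formative pluripotency, and it is also known for directing primitive endoderm fate in the blastocyst. Active ERK leads to transcription of its own brakes, among them Sprouty proteins, which act on the receptor pathway upstream of ERK, and DUSP6, a phosphatase that removes activating phosphates from ERK. Transcription of Etv4 and Etv5 likewise follows FGF signalling.

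The cells were of the male mESC line E14tg2a.4, grown with the cytokine LIF. The labels list 2 WT samples and 2 Srrm2 hKO samples from SIGTR line CG0630, which carries a gene trap in 1 of its Srrm2 alleles, a gene encoding a spliceosome protein. The trap line is a single clone, and according to the study's methods its cells were used at lower passage numbers than WT. Cells of both lines grew in serum-free ESGRO medium with LIF, for 24 h or 72 h per the labels. The study's single-cell methods give another length of growth. Each cell in the matrix carries a library number from 1 to 4, and no label or file used here ties a number to a sample. Srrm2 hKO was therefore not compared with WT, libraries are named by number, and a difference between libraries sets single cultures against each other, without replicate error and without a test.

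Kept cells numbered 7464 to 8514 per library, with 166839268 to 200180473 unique molecular identifiers (UMIs, 1 per captured transcript) per library. Median depth was 18378 to 21897 UMIs per cell. Between 11 and 26 kept barcodes were shared by any pair of libraries. Srrm2 itself lay at 238 to 533 UMIs per 1000000 (CPM) in the 4 libraries. Core pluripotency genes (Pou5f1, Sox2, Sall4, Utf1) summed to 1636 to 1954 CPM, against 3.43 to 19.7 CPM for 8 primitive endoderm genes and 3.29 to 11.2 CPM for 6 trophectoderm genes.

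Promoter sequences from RefSeq (build GRCm38.p6) were used for 5 of the 8 genes, each as 250 bases before and 50 bases from the transcription start. Those of Fgf4, Dusp6 and Spry2 are shown because the ligand and its inhibitors are set against each other in the results that follow. Capitals mark GGAA, the core of ETS factor binding sites, or TTCC, the same core on the other strand. The Fgf4 window is chr7:144861136-144861435 on the plus strand, the Dusp6 window chr10:99262981-99263280 on the plus strand and the Spry2 window chr14:105896770-105897069 on the minus strand.
Fgf4: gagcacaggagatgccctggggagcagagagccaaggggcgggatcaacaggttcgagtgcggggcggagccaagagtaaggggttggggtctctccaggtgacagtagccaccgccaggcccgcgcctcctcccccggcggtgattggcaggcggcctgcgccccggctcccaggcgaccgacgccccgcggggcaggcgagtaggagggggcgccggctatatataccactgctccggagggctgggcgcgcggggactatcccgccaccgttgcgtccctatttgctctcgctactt
Dusp6: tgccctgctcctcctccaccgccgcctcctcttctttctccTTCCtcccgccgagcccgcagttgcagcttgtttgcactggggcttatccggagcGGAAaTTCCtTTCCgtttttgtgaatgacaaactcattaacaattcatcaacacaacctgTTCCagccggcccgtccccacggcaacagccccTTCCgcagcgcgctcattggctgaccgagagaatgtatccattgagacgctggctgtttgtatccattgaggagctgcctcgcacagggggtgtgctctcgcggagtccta
Spry2: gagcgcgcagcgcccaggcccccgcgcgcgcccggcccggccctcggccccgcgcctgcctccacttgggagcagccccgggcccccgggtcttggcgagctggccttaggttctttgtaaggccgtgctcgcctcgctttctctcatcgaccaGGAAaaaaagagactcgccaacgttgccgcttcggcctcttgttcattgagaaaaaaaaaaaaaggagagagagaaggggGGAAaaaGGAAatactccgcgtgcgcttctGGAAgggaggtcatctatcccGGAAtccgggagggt

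The Fgf4 window held 0 matches to GGAA on either strand, the Dusp6 window 6 and the Spry2 window 5. Of 32851 RefSeq windows of the same length, 96.0% held at least 1 match, with a median of 3. The Fgfr2 window held 4. Etv5 had 2 annotated starts, of which the upstream window held 0 matches and the downstream window 6. GGAAGT, a longer ETS motif that contains the core, was found in the downstream Etv5 window at 2 positions and in none of the other member windows, compared with 23.8% of all windows. The extended ETS motif CCGGAAGT and the octamers TGAATGAA and TGAATGGA, to which the repressor Capicua binds, were in none of the 6 member windows. Of all windows only 3.89%, 1.30% and 1.21% held them, so nothing is read from their absence in 6 windows. These matches describe letters in the windows and say nothing of binding.

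Fgf4 (ENSMUSG00000050917) spans 144847367 to 144865243 on chromosome 7. Libraries 1 to 4 held 81.7, 87.9, 59.6 and 61.6 CPM of its transcript. Libraries 1 and 2 were thus higher than libraries 3 and 4, and the highest exceeded the lowest 1.47-fold (95% interval 1.44 to 1.51). After each cell was thinned to 5000 UMIs, 33.0% (exact 95% binomial interval 32.0 to 34.0), 34.2% (33.2 to 35.2), 24.5% (23.6 to 25.5) and 24.7% (23.8 to 25.7) of cells held an Fgf4 UMI in libraries 1 to 4, compared with 61.9% to 76.6% before thinning. These libraries contained no cell type known to lack the gene, so the part of free RNA in such shares was not measured.

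The receptors differed in level and in order. Fgfr1 (chromosome 8, 25513654 to 25575718), the receptor mainly used by epiblast cells, was at 24.5, 31.7, 34.7 and 38.3 CPM in libraries 1 to 4. Its range was 1.56-fold (1.5 to 1.63). Fgfr2 (chromosome 7, 130162451 to 133123350), the receptor associated with primitive endoderm, was low, at 2.52, 6.76, 4.62 and 6.21 CPM. Its 2.69-fold range (2.41 to 3.0) was the widest among the 8 genes and rested on 420 counts in library 1 and 1354 in library 2. Exons of the Fgfr2 annotation overlap those of Ctbp2 on the same strand, so reads from the shared bases could not be assigned to either gene with certainty. Between 1.23% (1.0 to 1.5, library 1) and 3.39% (3.02 to 3.80, library 2) of thinned cells held an Fgfr2 UMI, against 10.7% (10.0 to 11.4, library 1) to 17.2% (16.4 to 18.1, library 4) for Fgfr1.

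All 3 feedback inhibitors were lowest in library 1 and highest in library 4, except that Spry2 was lowest in library 2 when counts were scaled by size factors. Spry2 (105891947 to 105896819 on chromosome 14) had 43.9, 48.6, 51.1 and 59.4 CPM in libraries 1 to 4, with the narrowest range of the 8 genes at 1.35-fold (1.31 to 1.40). Spry4 (38586247 to 38601415 on chromosome 18) had 14.1, 21.9, 20.4 and 26.6 CPM and varied 1.89-fold (1.80 to 1.99). Dusp6 (99263231 to 99267489 on chromosome 10) had 13.5, 18.6, 24.8 and 28.7 CPM. Its range was 2.13-fold (2.03 to 2.24).

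The ETS factors split the libraries in another way. Etv5 (22381309 to 22439719 on chromosome 16) had 72.6 and 76.2 CPM in libraries 1 and 3 and 123 and 116 CPM in libraries 2 and 4, a range of 1.69-fold (1.65 to 1.73). Etv4 (101769742 to 101785371 on chromosome 11) had 25.9 and 37.4 CPM in libraries 1 and 3 and 19.3 and 23.5 CPM in libraries 2 and 4. Its range was 1.94-fold (1.86 to 2.02). Libraries 2 and 4 were therefore above libraries 1 and 3 for Etv5 and below them for Etv4. The gap was 1.52-fold (1.49 to 1.56, library 4 over 3) for Etv5. For Etv4 it was 1.10-fold (1.06 to 1.15, library 1 over 4). This split was read from the same values, and the share of all genes that show it was not counted.

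**Figure D1:**
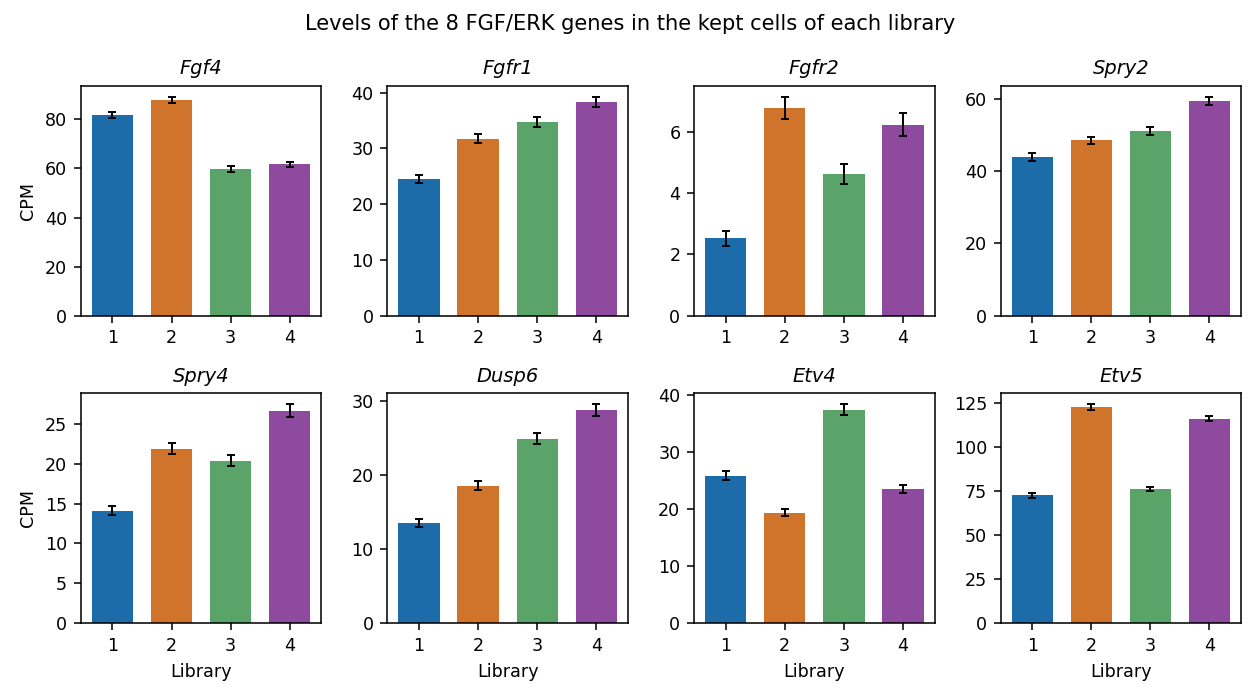
Level of each of the 8 genes in CPM (vertical axis, starting at 0, with its own scale per gene) in the kept cells of libraries 1 to 4 (bars), with exact 95% Poisson intervals that cover counting error only. Spry2, Spry4 and Dusp6 were lowest in library 1 and highest in library 4 (with size factors Spry2 was lowest in library 2), whereas Etv5 was highest in libraries 2 and 4 and Etv4 in libraries 1 and 3.

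Of the 8 genes, 6 differed at least 1.5-fold between the highest and lowest library. The same was true of 48.2% of 12928 genes at 1 CPM or more in at least 1 library, and with 8 genes no more is read from this count. Without library 1, 3 of the 8 genes passed (Dusp6, Etv4 and Etv5). With size factors in place of library totals Fgfr1 fell short, at 1.35-fold, and Fgf4 passed, at 1.54-fold. Ordered by level, no neighbouring pair of libraries had a ratio whose counting interval held 1, for any of the 8 genes. That interval does not include variation between cultures. Naive and formative panel sums differed between the libraries too. The 10 naive genes summed to 1930, 1575, 1402 and 931 CPM and the 8 formative genes to 178, 695, 310 and 1064 CPM in libraries 1 to 4. From the highest to the lowest library, Fgfr1, Spry2 and Dusp6 ran 4, 3, 2, 1, the reverse of the naive sums. With size factors Spry2 was lowest in library 2 and did not keep this order. Spry4 ran 4, 2, 3, 1, the order of the formative sums. Fgf4, Fgfr2, Etv4 and Etv5 had neither order with library totals. Scaled by size factors, Fgf4 was highest in library 1 and lowest in library 4, as were the naive sums. These orders were read from the same values, and the share of all genes that show either was not counted. The part of the panels in the library differences was not tested.

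Cells were clustered with the 8 genes and the other listed pathway genes removed from the variable genes. Fgf5, also an FGF ligand, belonged to the formative panel and not to the pathway lists. It was therefore not removed, and it counted in the order of cells used below. In each library the largest cluster with a high naive panel sum and the cluster with a low sum are called its naive and low-naive cluster here. In library 1 they were cluster 1 (7654 cells, naive sum 2043 CPM) and cluster 5 (444 cells, 553 CPM), and in library 3 cluster 1 (5790 cells, 1821 CPM) and cluster 5 (2059 cells, 527 CPM). In library 2 they were cluster 2 (7225 cells, 1790 CPM) and cluster 3 (1208 cells, 285 CPM), and in library 4 cluster 4 (3476 cells, 1567 CPM) and cluster 3 (3688 cells, 366 CPM). A further 163 cells of library 4 were in cluster 2, with a naive sum of 1661 CPM. The low-naive cells of libraries 2 and 4 were thus of another cluster than those of libraries 1 and 3. Cluster 3 was led by Spon1 and Fgf5 and held formative sums of 1909 CPM (library 2) and 1509 CPM (library 4). Cluster 5 was led by Gzme and Ctla2a and held sums of 10 keratin and contractile genes of 1532 CPM (library 1) and 4214 CPM (library 3), against 110 to 203 CPM in the 4 naive clusters. Cluster 3 was also above the naive clusters for these genes, at 448 CPM (library 2) and 809 CPM (library 4). Formative sums in cluster 5 were 668 CPM (library 1) and 564 CPM (library 3), against 139 and 188 CPM in cluster 1. Neither rise was thus particular to 1 kind of low-naive cluster. Since panel genes could be used in clustering, their sums are a description of each cluster.

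Fgf4 was lower in the low-naive cluster of every library. It stood at 40.8 against 85.2 CPM in library 1, 48.4 against 94.7 CPM in library 2, 31.8 against 73.1 CPM in library 3 and 43.0 against 84.4 CPM in library 4. The ratios were 0.479 (0.438 to 0.523), 0.511 (0.483 to 0.540), 0.435 (0.413 to 0.458) and 0.510 (0.490 to 0.530), so all 4 low-naive clusters lay below all 4 naive clusters. Of the 8 genes it alone was at least 1.5-fold lower in each library, against 6.53% of 12023 genes tested. The Gzme-led cells of cluster 5 held 40.8 and 31.8 CPM and the Spon1-led cells of cluster 3 held 48.4 and 43.0 CPM.

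Dusp6 and Fgfr1 went the other way. Dusp6 stood at 46.5 against 10.8 CPM in library 1, 40.0 against 14.9 CPM in library 2, 44.3 against 15.6 CPM in library 3 and 38.4 against 17.8 CPM in library 4. Its ratios were 4.31 (3.91 to 4.74), 2.68 (2.5 to 2.88), 2.84 (2.67 to 3.02) and 2.15 (2.02 to 2.29). The 4 low-naive levels of Dusp6 lay between 38.4 and 46.5 CPM, a narrower span than its naive levels of 10.8 to 17.8 CPM in relative terms. Fgfr1 was at 58.8, 51.7, 53.7 and 45.2 CPM in the low-naive clusters of libraries 1 to 4 and at 21.7, 28.2, 25.6 and 29.0 CPM in the naive clusters. Its ratios ranged from 1.56 (1.48 to 1.64) in library 4 to 2.71 (2.5 to 2.94) in library 1. These were the 2 members at least 1.5-fold higher in each library, against 13.1% of the 12023 genes.

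The ratio of Fgfr2 differed between libraries 2 and 4 and libraries 1 and 3, whose low-naive cells were of different clusters. In clusters of at least 100 cells, library and kind of low-naive cell cannot be told apart here. The 78 cells of library 4 in cluster 5, too few for that limit, held Fgfr2 at 6.98 CPM (3.82 to 11.7). Fgfr2 was lower in cluster 3, at 2.37 against 7.50 CPM in library 2 and 3.67 against 8.90 CPM in library 4, ratios of 0.316 (0.243 to 0.404) and 0.412 (0.361 to 0.471). In cluster 5 it was at 3.34 against 2.45 CPM in library 1 and 4.89 against 4.47 CPM in library 3, where the intervals of the ratio, 0.965 to 1.87 and 0.940 to 1.27, held 1. Lower Fgfr2 in the low-naive than in the naive cells was therefore seen in libraries 2 and 4 and was not detectable in libraries 1 and 3. Naive cells of libraries 1 and 3, at 2.45 and 4.47 CPM, held less than those of libraries 2 and 4, at 7.50 and 8.90 CPM. The part of these naive levels in the ratios was not tested. In cluster 3 of libraries 2 and 4, 3 members (Fgfr1, Dusp6, Etv4) were at least 1.5-fold higher in each, against 17.3% of 12518 genes, and 2 (Fgf4, Fgfr2) were lower, against 9.06%. In cluster 5 of libraries 1 and 3, 2 members (Fgfr1, Dusp6) were higher in each, against 19.7% of 12419 genes, and 1 (Fgf4) was lower, against 9.63%.

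The Sprouty genes and the ETS factors passed 1.5-fold in some libraries or in none. Spry2 ratios were 1.16, 1.35, 1.05 and 1.05 in libraries 1 to 4. Spry4 ratios were 1.15 (0.986 to 1.32), 1.59 (1.47 to 1.71), 0.832 (0.772 to 0.895) and 1.34 (1.26 to 1.42), so Spry4 was higher in the Spon1-led cells of libraries 2 and 4 and lower in the Gzme-led cells of library 3. Etv4 was higher in the low-naive cluster of libraries 1, 2 and 4, with ratios of 1.58 (1.43 to 1.73), 2.46 (2.29 to 2.64) and 1.68 (1.57 to 1.79), and lower in that of library 3, at 0.820 (0.776 to 0.866). Without library 3, Etv4 would join Dusp6 and Fgfr1, and the count of members higher in each library would be 3. Etv5 was lower or near 1 throughout, with ratios of 0.860, 0.966, 0.668 and 0.795.

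**Figure D2:**
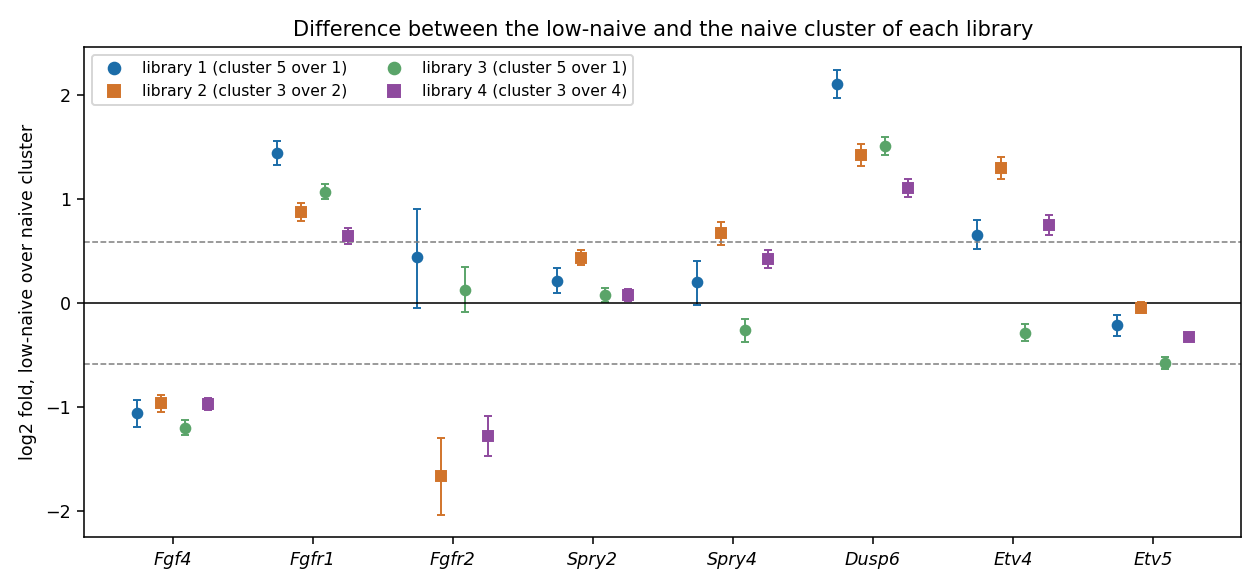
Difference of each gene between the low-naive and the naive cluster of each library, as log2 of the ratio of CPM (vertical axis), with exact 95% intervals for counting error; circles are libraries 1 and 3 (cluster 5 over 1), squares libraries 2 and 4 (cluster 3 over 2 or 4), and dashed lines mark 1.5-fold. Fgf4 was below and Fgfr1 and Dusp6 were above the dashed lines in all 4 libraries, Fgfr2 was below in libraries 2 and 4 only, and Etv4 of library 3 was on the other side of 0 from the other libraries.

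Within the naive clusters the split of libraries by the ETS factors was kept. Etv5 was at 73.4 and 85.4 CPM in the naive cells of libraries 1 and 3 and at 123 and 131 CPM in those of libraries 2 and 4. Etv4 was at 24.8 and 39.8 CPM in libraries 1 and 3 and at 16.0 and 17.4 CPM in libraries 2 and 4. Fgfr2 shared the direction of Etv5, with 2.45 and 4.47 CPM against 7.50 and 8.90 CPM. Naive cells of libraries 2 and 4 fell into other clusters than those of libraries 1 and 3, so library and cluster cannot be told apart here. In the 163 cells of library 4 that fell into cluster 2, Etv5 was at 156 CPM (142 to 171), Fgfr2 at 11.9 CPM (8.26 to 16.5) and Etv4 at 18.3 CPM (13.7 to 23.9), on the side of libraries 2 and 4 for each gene.

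Markers of other cell types moved with the low-naive clusters. The 8 primitive endoderm genes summed to 15.6 to 55.5 CPM in the low-naive clusters, highest in library 3, and to 2.21 to 2.68 CPM in the naive ones. Of its defining factors, Gata4 was at no more than 0.399 CPM in any of these clusters, whereas Gata6 and Sox17 reached 1.51 and 1.26 CPM in cluster 5 of library 3 and were at no more than 0.208 and 0.133 CPM elsewhere. The 6 trophectoderm genes summed to 4.91 to 30.2 CPM in the low-naive and 2.16 to 3.81 CPM in the naive clusters, with Cdx2 and Elf5 at 0 counts in cluster 5 of library 1. The 5 primitive streak genes summed to 6.23 to 13.3 CPM against 2.21 to 3.18 CPM, and the 6 fibroblast genes to 8.10 to 33.9 CPM against 0.938 to 4.31 CPM. The 4 two-cell-like genes were at or near 0 in all 8 clusters, at most 0.0718 CPM. Median depth in cluster 5 was 24879 and 24200 UMIs per cell, against 18135 and 18492 in cluster 1 of the same libraries. The part of these values in the member differences was not tested, apart from the clusters without cells of very high depth, in which the same 3 genes met the threshold in every library.

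A gradual order gave the same picture for Fgf4 and Dusp6. Its panel genes could also be used in clustering the same cells, so it is not independent of the clusters. Cells of each library were put in 4 bins of about equal size by log2 of naive over formative panel UMIs, with bin 1 the lowest. Keratin and contractile sums were also higher in bin 1 than in bin 4 of every library, most so in library 3 (3262 against 168 CPM). Fgf4 was higher in each successive bin of every library, with 66.4 CPM in bin 1 and 92.0 CPM in bin 4 of library 1. The same ends were 64.0 and 99.0 CPM in library 2, 35.5 and 74.7 CPM in library 3, and 45.1 and 81.6 CPM in library 4. Dusp6 was lower in each successive bin of every library, from 21.1 to 9.47 CPM, 31.1 to 13.2 CPM, 44.0 to 14.6 CPM and 38.0 to 17.2 CPM. In libraries 1 to 3 the largest step for both genes lay between bins 1 and 2, and in library 4 between bins 2 and 3. Of the 8 genes only Dusp6 was at least 1.5-fold higher in bin 1 than in bin 4 of each library, with ratios of 2.20 to 3.02, against 6.1% of 11720 genes tested. No member was at least 1.5-fold lower in each, against 0.555%, since Fgf4 had ratios of 0.722, 0.646, 0.476 and 0.553.

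Fgfr1 was higher in bin 1 than in bin 4 of every library, with ratios of 1.36, 1.61, 2.16 and 1.54. Fgfr2 again split the libraries, from 3.82 CPM in bin 1 to 8.97 CPM in bin 4 of library 2 and from 3.03 to 10.5 CPM in library 4, but from 2.99 to 2.31 CPM in library 1 and from 5.15 to 3.78 CPM in library 3. Etv4 was higher in bin 1 in libraries 1, 2 and 4, at ratios of 1.27, 2.29 and 1.5, and in library 3 the interval of its ratio (0.873 to 1.01) held 1. Spry2 ratios were 1.07 to 1.42, Spry4 ratios 0.916 to 1.53 and Etv5 ratios 0.810 to 1.16.

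**Figure D3:**
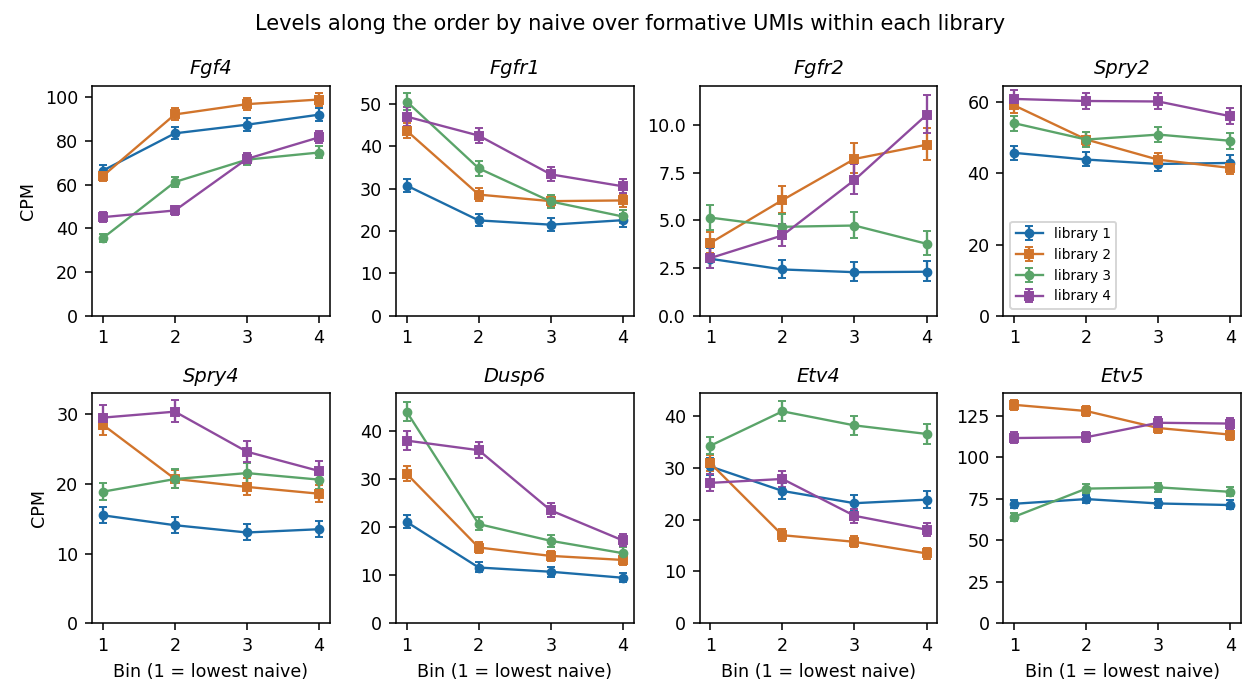
Level of each gene in CPM (vertical axis, from 0) in 4 bins of cells ordered within each library by naive over formative panel UMIs (horizontal axis, bin 1 lowest), with exact 95% Poisson intervals; lines join the bins of a library. Fgf4 was higher and Dusp6 lower in each successive bin of all 4 libraries, whereas Fgfr2 was higher towards bin 4 in libraries 2 and 4 only.

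Inside the largest cluster of each library the order made less difference. The largest cluster was the naive cluster in libraries 1 to 3 but the low-naive cluster 3 in library 4. Values inside the largest cluster therefore set unlike cells side by side, here and below. Dusp6 ratios between its bins 1 and 4 were 1.21, 1.41, 1.28 and 1.03 in libraries 1 to 4, and Fgf4 ratios were 0.853, 0.892, 0.912 and 1.02. In this setting 0 members passed 1.5-fold in each library. The Fgfr2 ratios kept to the split of the libraries, at 1.33 and 1.23 in libraries 1 and 3 and at 0.616 in libraries 2 and 4 (0.522 to 0.727 and 0.451 to 0.833).

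Over single cells the correlations between the 8 genes were small at this depth. At 5000 UMIs the variance of a member's counts was 0.994 to 1.18 times its mean, where counting alone gives 1. Means of 0.0127 to 0.617 UMIs per thinned cell keep this ratio near 1 and correlations near 0 even where cells differ. Independence of the genes therefore cannot be read from these values. Over the 28 pairs of members, Pearson correlations lay between -0.043 and 0.064 in the 4 libraries, across 7464 to 8514 cells of a library that share its depth and preparation. Correlations of this size in sparse counts are given as a description. The range was -0.073 to 0.100 at 10000 UMIs. For unthinned counts scaled to 10000 and log-transformed it was -0.114 to 0.163. At 5000 UMIs the correlation was above 0 in all 4 libraries for 10 pairs and below 0 for 5.

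Spry4 and Dusp6, which both dampen ERK signalling, were the pair with the highest median. Their correlations were 0.036, 0.043, 0.036 and 0.064 in libraries 1 to 4. Cells with transcripts of both genes made up 0.517%, 1.22%, 1.25% and 2.09% of the libraries, or 1.35 (0.976 to 1.83), 1.26 (1.03 to 1.53), 1.37 (1.11 to 1.66) and 1.37 (1.17 to 1.60) times the product of the shares of each. Cells with a Dusp6 UMI held 1.38 to 1.53 times the Spry4 level of cells without, and inside the largest cluster 1.34 to 1.5 times. Spry2 and Spry4 had co-detection ratios of 1.22, 1.05, 1.32 and 1.17.

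Correlations of Fgf4 with Dusp6, Spry4 and Etv4 were below 0 in all 4 libraries. In library 3, cells with an Fgf4 UMI held 0.972 (0.818 to 1.15) times the Spry4 level of cells without. For Etv4 this ratio was 0.992 (0.878 to 1.12). The library 3 correlation of Fgf4 with Spry4 was 0.003 at 10000 UMIs and 0.035 for unthinned log-transformed values. The correlation of Fgf4 with Dusp6 was -0.043, -0.027, -0.030 and -0.026. Dusp6 was at 9.71, 17.9, 18.9 and 26.0 CPM in cells with an Fgf4 UMI and at 14.8, 21.8, 25.1 and 31.3 CPM in cells without one, ratios of 0.657 (0.535 to 0.803), 0.819 (0.705 to 0.948), 0.752 (0.637 to 0.886) and 0.830 (0.717 to 0.959). Inside the largest cluster the ratio was 0.743 (0.594 to 0.924) and 0.837 (0.702 to 0.996) in libraries 1 and 2, and in libraries 3 and 4 it was 0.945 and 0.975 with intervals that held 1. Fgf4 and Etv5 were the only pair with Fgf4 above 0 in all 4 libraries, from 0.007 to 0.040, and inside the largest cluster this lowest value was -0.013.

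**Figure D4:**
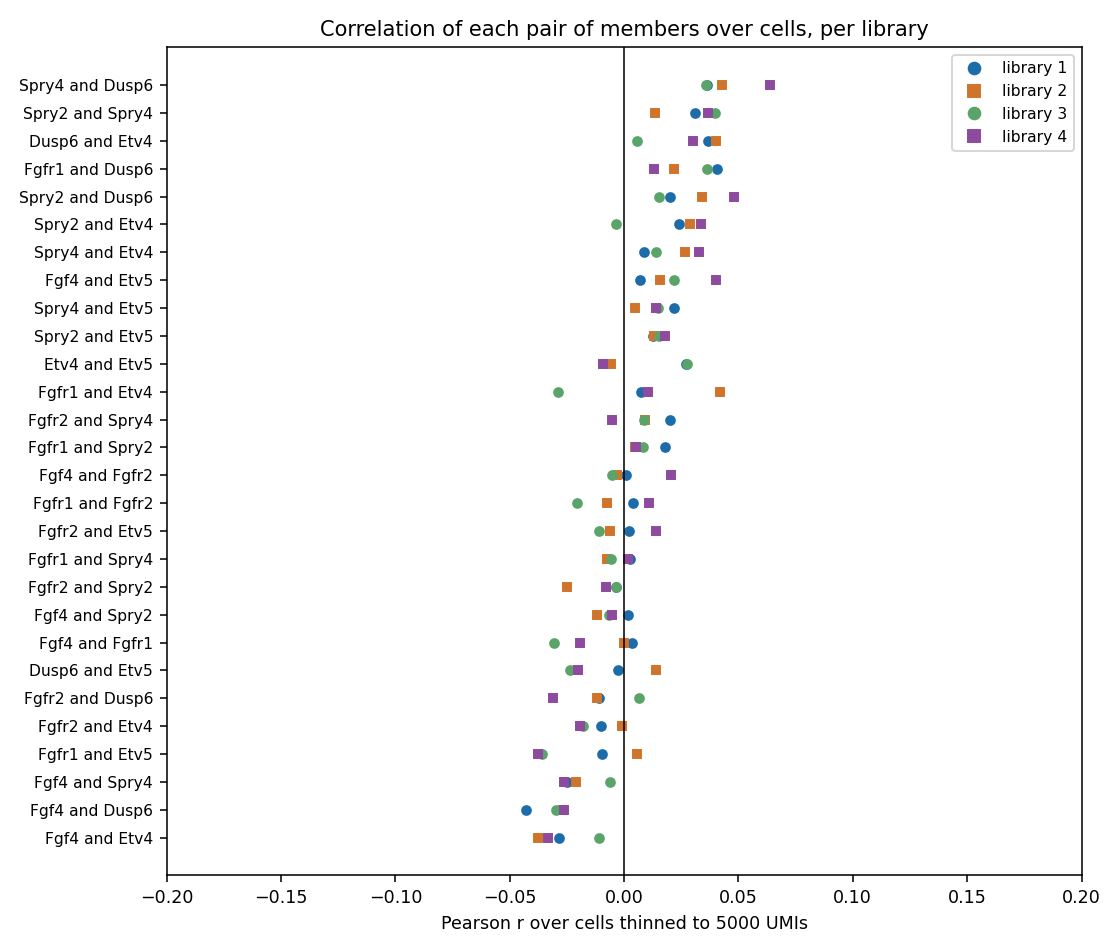
Pearson correlation over cells thinned to 5000 UMIs (horizontal axis) for each of the 28 pairs of members (rows, by median), with 1 point per library. All points lay between -0.043 and 0.064, with Spry4 and Dusp6 at the top and Fgf4 with Etv4, Dusp6 and Spry4 at the bottom.

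Fgf4, Fgfr1, Spry2 and Etv5 were frequent enough (at least 0.1 UMI per thinned cell in every library) to rank 4689 genes by likeness over cells, taken as the lowest of the 4 library correlations. Fgf4 was most like Dppa5a (0.085 to 0.190), Kdm5b, Enah, Tet1 and Nanog. Dppa5a and Nanog are genes of naive and general pluripotency, and Tet1 encodes a DNA demethylating enzyme. Fgfr1 was most like Cald1 (0.055 to 0.144), Tpm1, Fabp5, Actg1 and Pim2, of which Cald1, Tpm1 and Actg1 encode actin or actin-binding proteins. Its lowest value was with Dppa5a (-0.156 to -0.077). Inside the largest cluster, none of the genes named for Fgfr1, actin genes included, was named again. Spry2 was most like Cbx3 (0.039 to 0.058), Mkrn1, Hist1h2ap, Jarid2 and Meg3, and Etv5 was most like L1td1 (0.034 to 0.038), Cenpf, Tet1, Ccnd1 and Utf1. Over all 4689 genes, the 95th percentile of the correlations with Spry2 was 0.022 to 0.025 in the 4 libraries. With Etv5 it was 0.022 to 0.032. Among the genes most like Etv5, Ccnd1 in library 3 (0.030 against 0.032) and Utf1 in library 4 (0.028 against 0.029) lay below it. When cells were thinned to 10000 UMIs instead, the gene most like Spry2 was Spry4 (0.055 to 0.078), and 6 of the 20 genes named here were named again.

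The other genes of the pathway were read from 8 lists of 85 genes. Of these, 71 reached 1 CPM and 40 differed at least 1.5-fold between libraries, against 48.2% of all 12928 genes tested, with a median of 1.62-fold against 1.48-fold for all genes. Of 66 genes tested between clusters, 15 were at least 1.5-fold higher and 2 lower in the low-naive cluster of every library, against 13.1% and 6.53% of 12023 genes. The counts per list that follow have the same background, and nothing is read from lists this small. Of the 17 genes, 3 (Fgf8, Ets1 and Fgf1) were under 1 CPM in one of the clusters compared and were tested only through the cluster in which they were higher. The other feedback inhibitors had 5 of 10 higher (Spry1, Spred3, Dusp4, Dusp5, Dusp9) and none lower. Dusp4, a nuclear phosphatase of ERK, had ratios of 6.06, 5.76, 3.77 and 2.68 in libraries 1 to 4 and Dusp9 ratios of 2.59, 2.88, 1.85 and 2.16. Spred1, the most abundant gene of this list, had ratios of 1.04 to 1.34.

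Of the 16 FGF ligands in the list, which left out Fgf5, 4 were frequent enough to test. Fgf17, the most abundant of the list, was lower in the low-naive cluster of every library, with ratios of 0.550, 0.214, 0.565 and 0.453. Fgf5, a panel gene, was at 30.9 CPM in cluster 3, 18.4-fold its level in all other cells. Fgf8 was at 0.130 to 0.680 CPM in the naive and 1.51 to 8.29 CPM in the low-naive clusters, and Fgf1 at 2.56 to 6.26 CPM and 0.244 to 0.954 CPM. Fgf15 was at 2.63 and 2.34 CPM in libraries 1 and 3 and at 16.7 and 15.2 CPM in libraries 2 and 4, the library split seen for Etv5. Of the further receptors, which included Fgfr3 and Fgfr4, only Fgfrl1, a receptor without a kinase domain, reached 1 CPM, and its ratios were 1.69 to 2.33. Heparan sulfate genes had 3 of 10 higher (Sdc1, Sdc2, Gpc4), with Gpc4 at 2.14 to 3.29, while Sdc4, the most abundant, was at 43.3 CPM or less in libraries 1 and 3 and at 70.5 CPM or more in libraries 2 and 4.

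Genes that carry the signal to ERK varied less. Among adaptors and RAS genes, Ptpn11, a phosphatase needed for RAS activation, had ratios of 1.61 to 1.92. Hras, the most abundant, had ratios of 1.40 to 1.56, and Sos1 had ratios of 0.796 to 1.04 and a 1.62-fold range between libraries. None of 11 RAF, MEK, ERK and RSK kinases was 1.5-fold higher or lower in every library, and 2 differed 1.5-fold between libraries (Braf 1.84-fold, Rps6ka2 1.79-fold). Map2k2, the most abundant, stayed between 124 and 135 CPM in the libraries and had ratios of 0.952 to 1.04. Among other transcriptional targets 1 of 9 was higher, Phlda1, at 4.94 to 34.7. Egr1, an immediate early gene, had ratios of 2.11, 0.843, 3.45 and 1.41, and Ccnd1, the most abundant of this list, 1.04 to 1.68. Of 8 ETS and partner factors, 1 (Ets1) was higher in every library, from 0.328 to 0.568 CPM in the naive clusters. Srf had ratios of 1.40 to 1.96, Erf, a repressor that ERK keeps out of the nucleus, 0.843 to 1.06, and Cic, which encodes Capicua, 0.922 to 1.05. Of the genes given here only as higher or lower in every library, those outside the rule for named genes were named after their values were seen.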

How the data were processed

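Droplet 3′ single-cell RNA-seq of WT and Srrm2 hKO mESC was analysed from the deposited matrix of raw UMI counts. The authors aligned each library to mm10 with Cell Ranger 6.1.2 (version per the submitters' processing notes) and joined the 4 libraries with its aggregation step, which equalises read depth between libraries. Barcodes carry a library number that no source used here ties to a sample, so the planned edgeR comparison of Srrm2 hKO with WT was not made.

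The study's cell filter (UMIs and genes at or above the library mean minus 1 SD, mitochondrial share of at most 10%) was applied and kept 31989 of 41142 cells. Levels are summed UMIs per 1000000 (CPM) with exact 95% Poisson intervals, shares have exact binomial intervals, and ratios have exact conditional intervals. PCR duplicates were removed by UMI, and all intervals cover counting error only. Shares, orders and correlations used cells thinned to 5000 UMIs without replacement, which left out 0 cells. The floor of 3 counts was 0.0150 to 0.0180 CPM.

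Counts scaled to 10000 and log-transformed gave 2000 variable genes (loess, R 4.3.3). Of these, 25 members and pathway genes were left out. From 20 components and 20 neighbours, clusters were made with leidenalg 0.10.2 at resolution 0.2, without batch correction, and clusters under 100 cells in a library were not compared. No doublet caller was used, and cells over 2 times the median UMIs (1615 cells) were left out in an alternative. Genes entered a cluster, bin or library comparison at 1 CPM.

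No test was possible, and a fold of 1.5 served as the threshold. Members and lists were chosen with earlier results of these data known. Named genes were the 8 members, the 5 genes most like each frequent member, and of each pathway list the most abundant gene and the 2 with the widest library range among genes at 10 CPM. Not every result of the adaptor and RAS list is reported here. Gene coordinates are from GENCODE (GRCm38), promoters from RefSeq. Fold, interval, thinning and correlation steps were tested on simulated data. Calculations used Python 3.11.15, NumPy 2.4.6 and SciPy 1.17.1.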

Additional observations from a re-analysis of the deposited data

Results flagged for a closer look

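Etv4 differed in opposite directions between the same clusters of different libraries. Cluster 5 over cluster 1 gave 1.58 (1.43 to 1.73) in library 1, with 39.1 against 24.8 CPM, and 0.820 (0.776 to 0.866) in library 3, with 32.6 against 39.8 CPM. The level in cluster 5 was thus nearer between the libraries than the level in cluster 1. Intervals cover counting error only, and the difference between the libraries was not tested. The 10 keratin and contractile genes had sums of 1532 and 4214 CPM there in libraries 1 and 3, and their part was not tested.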

How the results depend on the processing

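The 3 genes past 1.5-fold between clusters in every library (Fgfr1 and Dusp6 higher, Fgf4 lower) were the same with clusters made from all variable genes, at resolutions 0.1 and 0.4 and without cells of very high depth. At resolution 0.1 the clusters of library 4 merged, so that library gave no value. Between libraries 6 genes passed under all 5 other cell sets and scalings. They were the same 6 except with size factors, where Fgfr1 was left out (1.35-fold) and Fgf4 entered (1.54-fold), and where size factors were 0.917 (library 1) to 1.06 (library 4) times the library totals. Without library 1 the count was 3. Ordering cells within the largest cluster gave 0 in place of 1 gene past 1.5-fold in bin 1, while the 4 other orders gave Dusp6 again. The order by formative UMIs alone gave no value for library 1, where too many cells were tied. In the largest cluster of library 4, which was its low-naive cluster 3, the ratio of Etv4 turned, to 0.876 (0.787 to 0.975). That of Fgf4 was 1.02 there, with an interval (0.933 to 1.11) that held 1. The largest cluster was the naive one in libraries 1 to 3, so this setting compared unlike cells between libraries. The cause of the turn was not tested. Pathway genes past 1.5-fold between libraries numbered 23 in place of 40 at 10 CPM, where fewer genes were tested. Pairs correlated above 0 in all 4 libraries numbered 5 in place of 10 in the largest cluster and 6 without clusters 5, 6 and 7, a setting chosen after seeing the data, and pairs below 0 numbered 3 in place of 5 at 10000 UMIs. Of 20 genes most like a member, 11, 6 and 7 were named again with the median correlation, at 10000 UMIs and in the largest cluster. Among ratios of single members, 9 of 40 between libraries and 16 of 120 between clusters moved beyond their counting interval, as did 64 of 152 between bins. A further 2 of the 152 came to lie on the other side of 1, whether or not their new interval held 1.

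No paired analysis was possible because no source used here ties a library to a labelled sample, and for the same reason the planned tests of Srrm2 hKO against WT were not run. With 1 culture per library, differences between libraries have no replicate error.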

Other observations

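Members were also read along the cell cycle, a comparison chosen after seeing the data. Cells were put in 4 bins per library by the summed UMIs of 14 G2/M genes or 14 S genes. Etv5 was higher in the highest than in the lowest G2/M bin of every library, at ratios of 1.18, 1.16, 1.27 and 1.22, and Spry4 in the highest S bin, at 1.15, 1.17, 1.29 and 1.30. Both were picked from all members and both orders. The share of all genes with such a direction in every library was not counted. No member reached 1.5-fold in either order in any library.

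Small clusters held other levels. In the 89 cells of cluster 6, led by Aqp3 and Bhlhe41, Fgf4 was at 25.9 CPM (17.2 to 37.4), Etv4 at 6.47 CPM (2.60 to 13.3) and Spry4 at 39.8 CPM (28.8 to 53.6), compared with 73.3, 26.3 and 20.8 CPM in clusters 1 to 5. In the 52 cells of cluster 7, led by Gm4340 and Gm21761, Fgf4 was at 39.2 CPM (28.0 to 53.4) and Etv4 at 8.82 CPM (4.03 to 16.7), while Spry2 was at 65.7 CPM (50.9 to 83.4). Only 78 cells of library 4 fell into cluster 5. Their Fgf4 was at 11.5 CPM (7.27 to 17.2), their Fgfr1 at 93.7 CPM (80.8 to 108) and their Dusp6 at 41.9 CPM (33.4 to 51.8). Fgfr2 was at 6.98 CPM (3.82 to 11.7) and Spry4 at 16.0 CPM (10.9 to 22.5) in the same cells. These pooled values rest on few cells and were not compared further.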
